A study of Mus musculus and other sequences with 2 samples.

Results

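Neural miRNAs, sequences best known from a tissue that a blastocyst does not have, were examined in media that had held mouse blastocysts and in media that had not. They were the mouse assays of a TaqMan rodent array, without the mark # for a minor arm, whose names carry the numbers of the miR-7, miR-9, miR-124, miR-128, miR-137, miR-138, miR-153 and miR-219 families. This rule gave 9 of the 750 miRNA assays, namely mmu-miR-7, mmu-miR-7b, mmu-miR-9, mmu-miR-124a, mmu-miR-128a, mmu-miR-137, mmu-miR-138, mmu-miR-153 and mmu-miR-219, written without the species prefix below. All 9 were on card A, the card of the array that holds 374 miRNA assays; card B holds the other 376. The rule itself uses the assay number and no Ct. The name neural refers to the tissue in which these miRNAs are best known, and as neither sample was nervous tissue, that name could not be checked here.

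The conditioned sample was BSA-free KSOM medium with 0.1% polyvinylacetate, as the labels name it, in which 25 CD1 embryos had been kept in a droplet of 8 μL from 99 to 116 h post-hCG. The embryos were conceived in superovulated CD1 females, 3 weeks of age by the labels, mated with CD1 males, and were grown from the zygote under 5% O2 and 5% CO2. The blank control was the same medium held for 17 h without embryos. There was 1 sample of each, the conditioned one being a pool of 25 embryos, so that no difference between the media could be tested and every value below is a single well. RNA was not extracted. Instead, 6 μL of whole media was lysed, and for each card a part of the lysate was reverse transcribed and pre-amplified for 12 cycles. The measurement is the Ct, the cycle at which the fluorescence of a well crosses its threshold, so that the scale runs backwards and in logarithms, an early Ct standing for a strong signal and a late one for a weak signal. A well that never crossed it was deposited as undetermined. A sequence is called detected at a Ct below 35. The study also required a signal height, which was not analysed here, and it reported fewer sequences as detected in each medium.

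A miRNA is a short RNA that guides Argonaute proteins to messenger RNAs, chiefly through its seed, the bases 2 to 8 from its 5′ end. Neurons and glia carry miRNAs that are scarce in most other tissues. Among them, miR-124 and miR-9 are the classic miRNAs of neurons and of neural progenitors, miR-128, miR-137, miR-138 and miR-153 are enriched in brain and are studied in neuronal excitability, maturation, dendritic spines and synaptic vesicle release, and miR-219 promotes the maturation of oligodendrocytes, the myelin-forming glia. miR-7 and miR-7b are best known from neuroendocrine cells, the pituitary and the hypothalamus. Each is made from a hairpin that yields a main arm and a minor arm, and the array marks some minor arms with # and names others by the end of the hairpin, 5p or 3p.

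The mature sequences are shown because they tell which members could share targets or an assay signal. They are those of RefSeq (GRCm38.p6) for the miRNA that each older assay name stands for, 5′ to 3′, with the seed in capitals, since the deposited values name the assays and not their target sequences. A sequence was matched for 8 of the 9 members.
miR-7 (miR-7a-5p): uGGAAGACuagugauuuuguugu
miR-7b (miR-7b-5p): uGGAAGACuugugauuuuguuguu
miR-9 (miR-9-5p): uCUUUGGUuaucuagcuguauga
miR-128a (miR-128-3p): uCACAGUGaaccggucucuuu
miR-137 (miR-137-3p): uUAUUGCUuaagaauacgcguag
miR-138 (miR-138-5p): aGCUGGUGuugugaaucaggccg
miR-153 (miR-153-3p): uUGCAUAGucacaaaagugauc
miR-219 (miR-219a-5p): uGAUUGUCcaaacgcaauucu
These 8 sequences held 7 different seeds. Only miR-7a-5p and miR-7b-5p shared one, and over the 23 bases that could be compared they differed by 1 substitution, A10U, with positions counted from the 5′ end, miR-7a-5p being 23 and miR-7b-5p 24 bases long. None of the other 6 shared its seed with a further mature miRNA of the table. In the same annotation the 8 mature sequences came from 14 hairpin genes, 3 for miR-9-5p, 2 each for miR-7a-5p, miR-128-3p, miR-138-5p and miR-219a-5p, and 1 each for miR-7b-5p, miR-137-3p and miR-153-3p. By position, without regard to strand, several of these hairpins lay inside longer genes. Mir7-1 lay in Hnrnpk, which encodes a broadly expressed RNA-binding protein, Mir128-1 in R3hdm1, Mir128-2 in Arpp21, Mir138-2 in Nup93, which encodes a nuclear pore protein, Mir153 in Ptprn2 and Mir219a-2 in Cercam. The 3 hairpins of miR-9-5p lay in the long non-coding RNAs Gm3764, Mir9-3hg and C130071C03Rik. The deposited values name no genome build, and coordinates are therefore not given.

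Most neural miRNAs gave no signal in either medium. Of the 18 wells of the 9 members, 4 had a Ct. miR-7b, miR-9, miR-124a, miR-137, miR-138 and miR-153 were undetermined in both media, which is 6 of 9 members, or 66.7%. Among all 750 assays 52.3% were undetermined in both, and among the 374 of card A 46.8%. The other 3 members each followed a different pattern. miR-7 was detected in both media, miR-219 in conditioned media only and miR-128a in blank media only, and no member had a Ct between 35 and the end of the run.

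**Figure D1:**
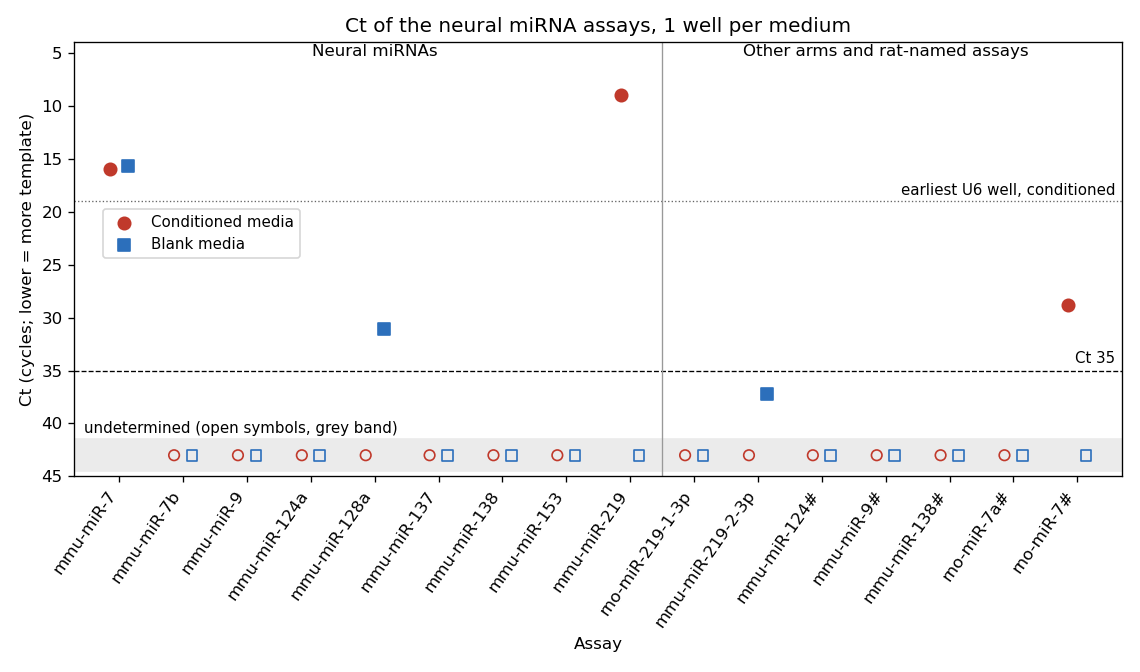
Ct in cycles (vertical axis, reversed so that earlier values are higher) of the 9 neural miRNA assays and of 7 further assays of the same numbers, with 1 well per medium, circles for conditioned and squares for blank media, and no error bars because there were no replicates. Open symbols in the grey band are undetermined wells, the dashed line is the detection limit of 35 and the dotted line the earliest U6 well of the conditioned sample at 18.987; miR-7 and miR-219 lie above the dotted line and 6 members have open symbols only.

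Detection in conditioned media was therefore 2 of 9 members, where 37.3% of all assays were detected, and detection in blank media was also 2 of 9, where 29.1% were. By class, 1 of 9 was detected in both media (23.5% of all assays), 1 of 9 in conditioned media only (13.9%), 1 of 9 in blank media only (5.6%) and 6 of 9 in neither (57.1%). Within card A the same shares were 25.1%, 14.7%, 7.49% and 52.7%. With 9 assays, 1 member more or less moves a share by 11.1 percentage points, so that these counts give no result about the members apart from the array.

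U6, a small nuclear RNA placed in 4 wells per card, gives the spread of the wells and a scale for how early a Ct is. On card A, the U6 wells lay between 19.893 and 21.31 in conditioned media, averaging 20.9 ± 0.68 (SD, n = 4 wells). In blank media they lay between 20.197 and 27.143, averaging 24.98 ± 3.22 (SD, n = 4 wells). The latter SD came from 1 well, without which it was 0.49 over 3 wells, a choice made after seeing the data. Assays of equal name, such as those of miR-217 on cards A and B, gave a further and looser measure, since they need not be repeats of 1 assay. In the 8 cases where both such wells of a medium were detected, their Ct lay 1.25 to 14.7 cycles apart, the median gap being 3.74. The largest gap was that of miR-217 in blank media, with 1 well at 14.711. Over the other 7 cases the gaps went from 1.25 to 7.42 cycles, with a median of 3.40. These are spreads of wells and assays, not of embryos or droplets.

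mmu-miR-7 crossed the threshold at cycle 15.996 with embryos and at cycle 15.716 without them. The conditioned well was thus later by 0.28 cycles, which is smaller than the SD of the U6 wells on that card in either medium, so that no difference between the media was distinguishable from the error of wells. Relative to the mean of the U6 wells of each sample, which were themselves earlier with embryos, the difference became 4.36 cycles, and it thus depends on whether U6 is taken as a reference. Of the 176 assays detected in both media, 17 had a smaller difference in either direction, and the median size of the difference was 2.19 cycles. The conditioned well was at least 5 cycles earlier for 10.8% of these 176 assays and at least 5 cycles later for 11.4%, and miR-7 was in neither class. The Ct was early on the scale of the array, although assays differ in efficiency and their order by Ct is not one of molecule number. miR-7 ranked 51 of 280 in the conditioned sample, counting from the earliest well, and 56 among those detected without embryos. It came 3.90 cycles before the earliest U6 well of card A in conditioned media and 4.48 cycles before the earliest in blank media.

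Early values of this kind were found with and without embryos. Taking the earliest U6 well of the conditioned sample, 18.987 on card B, as the limit, 78 of the 750 assays (10.4%) had an earlier Ct with embryos, 78 (10.4%) had one without, and 47 (6.27%) had one in both samples, as miR-7 did. On card A, 19 assays were early in both, and among these the conditioned minus blank difference went from -3.65 to 7.01 cycles. The 3 assays of card A nearest to miR-7 in both Ct values together were miR-188-5p, with 13.812 in the conditioned and 15.033 in the blank sample, miR-544, with 17.93 and 17.401, and miR-344, with 13.119 and 15.187. They lay at distances of 2.29, 2.57 and 2.93 cycles over the 2 samples.

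The neuroendocrine relative mmu-miR-7b, which differs from miR-7a-5p by the A10U substitution and by 1 base of length, was undetermined in both media. The Ct of miR-7 and the lack of one for miR-7b therefore stood side by side in the same samples and on the same card. The array also held minor-arm assays of this family, both named for rat. rno-miR-7# crossed at cycle 28.779 in the conditioned sample and had no Ct in the blank one. The assay is taken here to stand for miR-7a-1-3p, the minor arm of Mir7-1 in mouse, a match that rests on name and Ct. The study's short list of sequences found only in conditioned media holds miR-7a-1-3p at a Ct of 28.8. The RefSeq sequence of miR-7a-1-3p is given here because it is the one sequence of the neural hairpins with a late Ct in conditioned media only.
miR-7a-1-3p: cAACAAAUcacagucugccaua
Its Ct came 8.82 cycles after the mean of the U6 wells of its card, B, in conditioned media. Of the 104 assays detected in conditioned media only, whose median Ct was 28.4, 54 had an earlier and 49 a later Ct, so that it stood near the middle of that class. The other minor arm, rno-miR-7a#, was undetermined in both media. Within the family, miR-7 thus had an early Ct with and without embryos, rno-miR-7# a later Ct with embryos only, and miR-7b and rno-miR-7a# no Ct. As every assay has its own efficiency, the Ct values do not give the ratio of the arms.

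mmu-miR-219, the oligodendrocyte miRNA, crossed at cycle 8.966 in the conditioned sample, while its blank well had no Ct. It ranked 17 among the 280 detected sequences of the conditioned sample and sixth on card A, and came 10.9 cycles before the earliest U6 well of that card. A Ct earlier than the U6 limit in conditioned media with none in blank media was found for 18 assays (2.4% of 750). With 1 more assay that had a late Ct in blank media, 19 assays detected in conditioned media only were this early, from 5.51 to 18.8, and 3 of them were on card A, namely rno-miR-532-5p at 7.875, miR-219 at 8.966 and miR-687 at 13.779. The opposite arms of the miR-219 hairpins had no Ct in conditioned media. rno-miR-219-1-3p was undetermined in both media, and miR-219-2-3p was undetermined in conditioned media and had a Ct of 37.169, past the detection limit, in blank media. The main arm of miR-219 had no further assay among those used here, so that its Ct rests on 1 well. The height of its signal, on which the study also filtered, was not analysed here, so that the well was not held to that filter. The study's short list of sequences found only in conditioned media does not hold miR-219. By Ct alone miR-219 met the limits of that list, which also set signal heights in both media. Those heights were not examined here.

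mmu-miR-128a was the reverse case, with a Ct of 31.077 in blank media and none where embryos had been. It was 3.93 cycles later than the latest U6 well of its card in blank media, and ranked 187 among the sequences detected there, which were 29.1% of all assays. A Ct below 35 in blank media only was found for 42 assays, with a median of 25.0, and 30 of these had an earlier Ct than miR-128a. The study, which filtered on signal height too, reported fewer sequences exclusive to blank media than these 42. By definition no assay of that class has a Ct below 35 in conditioned media, and 38 of the 42, miR-128a among them, had no Ct there at all.

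The remaining hairpins gave no Ct from either arm where both were measured. miR-9 and miR-9#, miR-124a and miR-124#, and miR-138 and miR-138# were undetermined in all wells. Over the 7 further assays of the same numbers, 4 named for mouse and 3 for rat, 5 were undetermined in both media (52.3% of all assays), 1 was detected in conditioned media (37.3%) and none in blank media (29.1%).

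**Figure D2:**
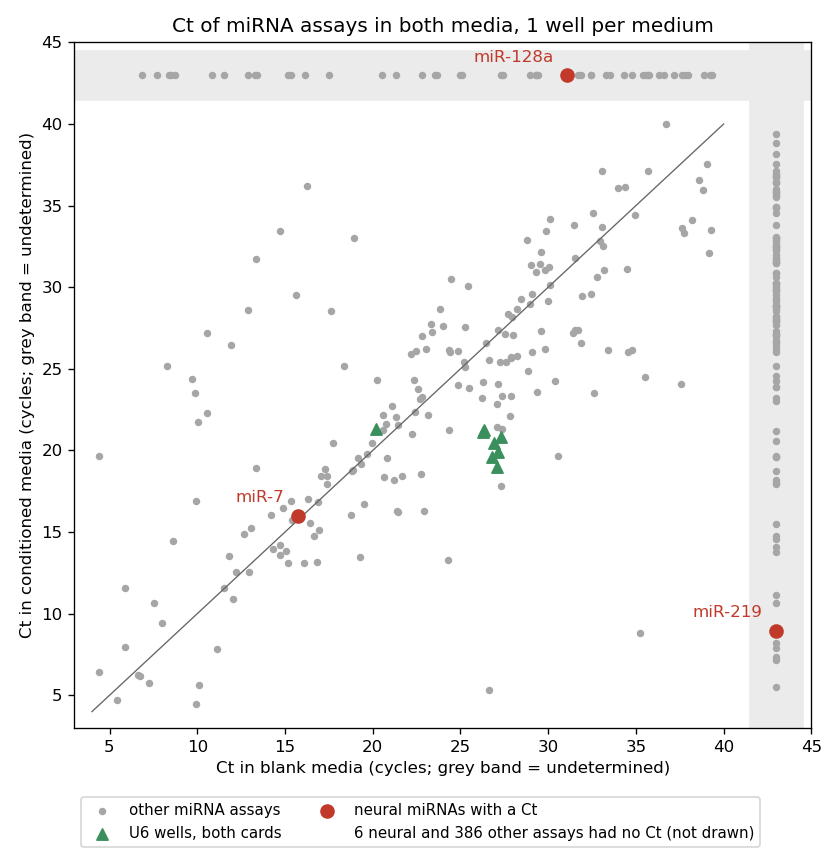
Ct in conditioned media (vertical axis, cycles) against Ct in blank media (horizontal axis, cycles) for every miRNA assay with a Ct in at least 1 medium, each point being 1 assay with 1 well per medium, with wells without a Ct placed in the grey bands and the line marking equal Ct. miR-7 lies by the line at 15.996 and 15.716, miR-219 in the right band at 8.966 and miR-128a in the upper band at 31.077, while the triangles of U6 lie mostly below the line.

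Other miRNAs that are linked to neurons or oligodendrocytes were looked at in the same way, namely the mouse assays without # of miR-129, miR-132, miR-134, miR-212, miR-218 and miR-338. Of these 9 assays, 3 were detected in both media, none in 1 medium only and 6 in neither, where 23.5% of all assays were detected in both media and 57.1% in neither. miR-218, which is known from motor neurons, crossed at cycle 23.315 with embryos and 27.886 without. miR-212, which shares a primary transcript with the activity-dependent miR-132, crossed at 25.409 and 27.228, and 1 of the 3 assays of miR-338, a miRNA of oligodendrocytes, had 30.644 and 32.777. All 3 were earlier with embryos, the conditioned minus blank difference being -4.57, -1.82 and -2.13 cycles. The difference of the U6 means was -4.08 cycles on card A, which holds miR-218, and -7.07 cycles on card B, which holds the other 2. miR-132 itself, miR-134, both assays of miR-129 and the remaining assays of miR-338 were not detected.

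The 2 sets of tissue-restricted miRNAs most like the neural ones were those of muscle (miR-1, miR-133, miR-206, miR-208 and miR-499) and of liver and pancreas (miR-122, miR-216, miR-217 and miR-375). Both sets were counted over mouse assays without #. Of 8 muscle assays, 4 were detected in conditioned media (37.3% of all assays) and 3 of these also in blank media (23.5%). Among the 8, only miR-133a, with a Ct of 31.597, was detected in conditioned media alone. Outside that rule, rno-miR-1 at 30.856, rno-miR-1# at 5.506 and miR-133a# at 14.596 were also detected in conditioned media only. The rule by number also took in miR-1-2-AS, whose name marks an antisense sequence, and which had an early Ct in both media. Of 6 liver and pancreas assays, 1 was detected in both media (23.5% of all assays), 3 in blank media only (5.6%) and none in conditioned media only. The sequence detected in both was miR-217 in its assay on card B, at 13.598 and 14.711, whereas the assay of the same name on card A was detected in blank media only, at 29.435. The number detected in conditioned media only was thus 1 of 9 for the neural, 1 of 8 for the muscle and none of 6 for the liver and pancreas sequences, where 13.9% of all assays were. Whether the sets differ was not tested, since assays of 1 sample are not replicates of a condition.

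**Figure D3:**
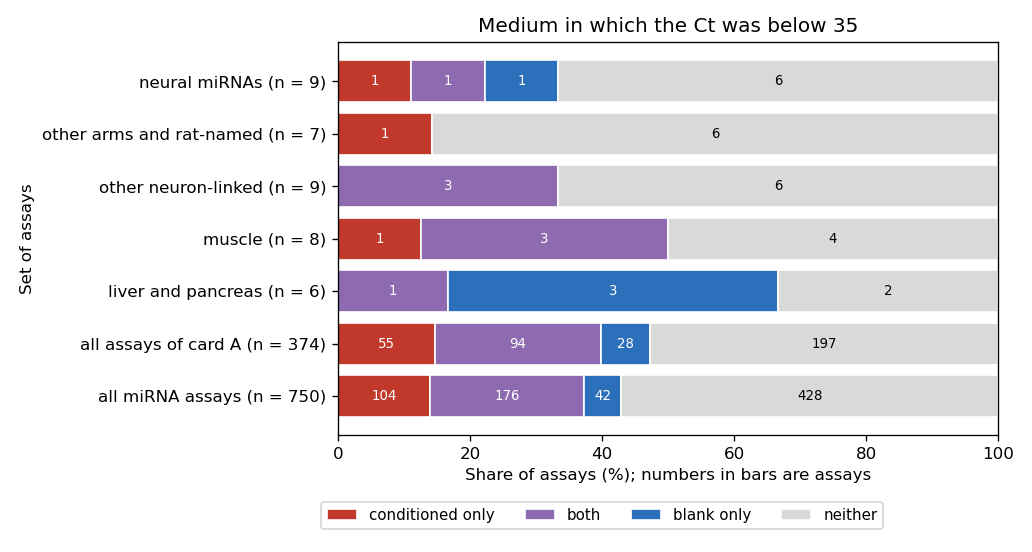
Share of assays in percent (horizontal axis) by the medium in which the Ct was below 35, for 7 sets of assays (vertical axis), with the number of assays written in each part of a bar. Of the neural miRNAs 6 of 9 fall in the grey part for neither medium, beside 428 of 750 for the whole array.

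Leaving out every well with a Ct earlier than the U6 limit removed both neural detections in conditioned media. In that setting 0 of 9 members were detected in conditioned media, where 202 of 750 assays (26.9%) were, and 1 of 9, miR-128a, in blank media, where 140 of 750 (18.7%) were. None of the 9 members therefore had a Ct between the U6 limit and 35 in the media that had held embryos. What gave the early wells of miR-7 and miR-219 was not tested.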

How the data were processed

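Media conditioned by 25 embryos and blank media were run once each on both cards. The authors deposited one unnormalized Ct per well, as read by the cycler's own program. Its threshold and baseline are not given in the sources used. The study filtered on signal height too, which was not analysed here, so that detection rests on a Ct below 35 alone. A deposited table of the authors' own fold changes between the media was not used. Of 768 wells, 18 held control assays and were left out of counts. Pre-amplification without dilution moves every Ct earlier, and its error cannot be separated from that of the wells.

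Members were found by assay number, and counts of members were set beside the same counts over all 750 assays. With 1 sample per medium no test was run. The sequences named are all members, further assays of the same numbers that had a Ct below 35, the 3 assays nearest to a member with a Ct in both media, U6, and sequences of the other lists detected in conditioned media only; other named values were chosen after they were seen. The members, lists and limits were chosen with earlier results of these data known. Alternatives were Ct limits of 32 and 38, any determined Ct, leaving out early wells, other backgrounds, and scaling to U6 or to the card median. The counting of classes was first tested on simulated data. Mature sequences and hairpin positions came from RefSeq tables for GRCm38.p6. The work was done in Python 3.11.15 with pandas 2.3.3 and numpy 2.4.6, and figures were drawn with matplotlib 3.10.9.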

Additional observations from a re-analysis of the deposited data

How the results depend on the processing

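With 1 well per medium, no value has a replicate error, and the depth of a Ct is limited by the wells alone. No paired analysis was possible because each medium had a single sample. Of 160 alternative values, 141 stayed within 1.5 times the main value, or within the SD of U6 wells for a difference. A count or share has no sign to reverse, so that a reversal was possible only for the difference of miR-7, which kept its sign. The members kept 2 detected in each medium at Ct limits of 32, 38 and any determined Ct. As no member had a Ct of 32 or later, these limits could not change those counts. Without wells earlier than U6, the count in conditioned media moved from 2 to 0, that in blank media from 2 to 1, and that in conditioned media only from 1 to 0; detection of the whole array in blank media moved to 140 assays, and of the liver and pancreas list in conditioned media from 1 to 0. The difference of miR-7, 0.28 cycles, became 4.36 relative to the mean of U6 and 5.38 relative to its median. It became 5.96 when the outlying blank U6 well was left out, an alternative chosen after seeing the data. Relative to the card median it was 0.395, within the SD of U6 wells, so that its size depends on whether U6 is the reference. At a limit of 38 or with any determined Ct, 1 further assay of the neural numbers and 1 assay of the embryonic list were detected in blank media, each from 0, and the liver and pancreas list had 2 in conditioned media; with any determined Ct, 1 of that list was in neither medium. At a limit of 32, the other neuron-linked list had 1 in conditioned media only, the male germ cell list had 1 in blank media and 2 in conditioned media only, and the blood list had 2 in neither medium.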

Other observations

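Lists of miRNAs best known from embryonic stem cells, male germ cells and blood cells were counted in the same way. The miR-290 to miR-295 cluster, the family that dominates embryonic stem cells, had 14 mouse assays without #, which include both arms of some hairpins. Assays are not distinct sequences here, since miR-292-3p, for example, has an assay on card A and another on card B. Of the 14 assays, 10 were detected in conditioned media only (13.9% of all assays), none in blank media (29.1%) and 4 in neither (57.1%). All 10 were kept when wells earlier than the U6 limit of 18.987, a well of card B, were left out. Among them, the card A assays of miR-292-3p at 19.619 and miR-295 at 19.667 came before the earliest conditioned U6 well of card A, at 19.893. Of 7 assays of male germ cell miRNAs, miR-34b, miR-34c and miR-449, 3 were detected in conditioned media (37.3%), and 1 of them, miR-34c with a Ct of 27.915, in conditioned media only. Of 5 assays of blood cell miRNAs, miR-142, miR-223 and miR-451, 3 were detected in both media (23.5%), 1 in blank media only (5.6%) and none in conditioned media only. The neural list had 1 of 9 in conditioned media only, the early well of miR-219.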
